A study of Mus musculus with 12 samples.

Results

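The transcripts described here are the IL-12, IL-18 and IL-27 axis genes, chosen by name for their place in these cytokine pathways. Earlier results of these data were known when they were chosen. The shares of all genes set beside their counts below are therefore descriptions. The axis genes are 9 of the 33018 lines of the gene table. Il12rb1 and Il12rb2 encode the IL-12 receptor, Il18r1 and Il18rap the IL-18 receptor, and Il27ra the chain of the IL-27 receptor that is specific to this cytokine. Il12a encodes the p35 subunit of IL-12, Il27 and Ebi3 encode the p28 and EBI3 subunits of IL-27, and Stat4 encodes the transcription factor that IL-12 activates. All 9 were found in the count table and in the TPM table, and 8 passed the filter on low counts. Il12a did not pass it.

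The RNA came from 12 MC38/hPD-L1 tumors, 4 per group, each from a different mouse. MC38 is a mouse colorectal adenocarcinoma line, here transduced to carry human PD-L1, and was grown under the skin of female C57BL/6NJ mice (C57BL6 in the labels). Each mouse was given a single intraperitoneal dose of an Fc control protein, of ALPN-202 or of anti-PD-L1 on day 8, and the tumor was taken 72 h later. ALPN-202 is an Fc fusion of an engineered CD80 domain that engages CD28, CTLA-4 and the human form of PD-L1, and anti-PD-L1 is durvalumab, an antibody to human PD-L1. The dose was 75 µg of the Fc control and 100 µg of each of the other agents. All tumors carry the human ligand on the tumor cells, while the host cells carry mouse PD-L1, which ALPN-202 does not bind.

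IL-12 is made mainly by dendritic cells and macrophages as a pair of p35 and p40 chains. It signals in T and NK cells through IL-12Rβ1 and IL-12Rβ2, the kinases TYK2 and JAK2, and STAT4, and it favors production of IFNγ. IL-18 is stored as a precursor, cleaved by caspase-1, and held in check by the secreted IL-18 binding protein. Its receptor signals through MYD88 and IRAK kinases and acts together with IL-12. IL-27, a pair of p28 and EBI3, is made by myeloid cells and signals through IL-27Rα and gp130 to STAT proteins, with both stimulating and restraining effects on T cells.

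The genes lie on 6 chromosomes (build NCBIM37). Il18r1 (chr1:40522397-40557699, plus strand), Il18rap (chr1:40572207-40608550, plus strand) and Stat4 (chr1:52043992-52164032, plus strand) are on chromosome 1, with the IL-18 receptor genes next to each other. Il12a is at chr3:68494566-68502469 on the plus strand, Il12rb2 at chr6:67241312-67326182 on the minus strand, and Il27 at chr7:133732524-133738455 on the minus strand. Il12rb1 (chr8:73332348-73345323, plus strand) and Il27ra (chr8:86554186-86566488, minus strand) are on chromosome 8, and Ebi3 is at chr17:56092046-56096444 on the plus strand. The end of Il27 overlaps the opposite-strand gene Apobr, which reached 653 counts in a tumor, and the library kit does not mark strand, so reads in that overlap cannot be assigned to one of the 2 genes.

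Promoter sequences are shown for 4 of the genes with the highest fold changes below, and where a gene has several starts, for the start whose window held a motif. RefSeq windows of 300 bases (GRCm38.p6, 250 bases before to 50 after an annotated start) matched 6 of the 9 genes and gave 10 windows. Il12rb1, Il27ra and Il27 had no entry. Both strands were searched for the STAT element TTCNNNGAA, to which STAT proteins bind, and for a pair of IRF half-sites GAAANNGAAA, to which interferon regulatory factors bind. Capitals mark the matches.
Il12rb2 (chr6:67376139-67376438, minus strand): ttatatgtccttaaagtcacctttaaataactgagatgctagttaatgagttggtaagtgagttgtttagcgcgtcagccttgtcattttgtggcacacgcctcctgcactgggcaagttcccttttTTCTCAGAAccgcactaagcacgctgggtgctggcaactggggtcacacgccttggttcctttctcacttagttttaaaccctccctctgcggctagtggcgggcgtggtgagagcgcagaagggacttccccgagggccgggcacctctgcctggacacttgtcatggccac
Il18r1, the third start (chr1:40465756-40466055, plus strand): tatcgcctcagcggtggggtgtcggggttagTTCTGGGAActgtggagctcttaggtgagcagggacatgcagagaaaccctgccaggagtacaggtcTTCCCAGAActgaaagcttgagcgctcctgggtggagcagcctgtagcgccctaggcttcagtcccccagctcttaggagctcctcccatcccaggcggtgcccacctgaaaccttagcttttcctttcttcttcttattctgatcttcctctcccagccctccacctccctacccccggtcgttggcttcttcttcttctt
Il18rap (chr1:40515112-40515411, plus strand): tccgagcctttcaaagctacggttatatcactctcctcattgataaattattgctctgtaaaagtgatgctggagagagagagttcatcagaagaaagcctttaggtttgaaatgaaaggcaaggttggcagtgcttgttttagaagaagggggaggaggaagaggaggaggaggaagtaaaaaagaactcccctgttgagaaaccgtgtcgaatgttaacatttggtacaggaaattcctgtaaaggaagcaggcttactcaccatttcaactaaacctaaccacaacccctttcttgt
Stat4, the second start (chr1:52007990-52008289, plus strand): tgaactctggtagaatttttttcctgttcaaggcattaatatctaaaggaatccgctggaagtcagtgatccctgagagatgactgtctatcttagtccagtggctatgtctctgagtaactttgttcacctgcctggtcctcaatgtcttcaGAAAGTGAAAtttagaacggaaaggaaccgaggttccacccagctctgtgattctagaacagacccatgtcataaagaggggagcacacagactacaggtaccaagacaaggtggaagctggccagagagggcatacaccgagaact

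The Il12rb2 window held 1 STAT element, TTCTCAGAA, 123 bases before the start. The third of the Il18r1 windows held 2, TTCTGGGAA at 219 bases before the start and TTCCCAGAA nearer to it. The element occurred in 2 of the 10 windows, and in 8.3% of 32851 mouse windows of the same length. The second Stat4 window held the IRF pair GAAAGTGAAA, 97 bases before the start, and this motif occurred in 3.44% of all windows. The Il18rap window held neither motif. These matches describe letters in the sequence and were not tested for binding.

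Total counts were 3988266 to 10692817 per tumor. Libraries of 2 tumors stood apart by gene length. In ALPN-202 replicate 4, which also had the lowest total, genes of 1019 bases or less were higher by a median of 1.30 on the log2 scale, and genes of at least 6216.1 bases had a median difference of -1.01. In Fc control replicate 1 the same medians were 0.87 and -0.98, while the other 10 tumors stayed between -0.19 and 0.19. ALPN-202 replicate 4 also had a summed CPM of 645 for 5 adipocyte markers, beside 27.4 to 74.98 in the rest of its group. The same sum was 346 in Fc control replicate 4, 474 in anti-PD-L1 replicate 4 and 3052 in anti-PD-L1 replicate 2, and at most 60.02 in the other 5 tumors of those groups. For 5 epithelial markers the sums in these 4 tumors were 80.3 to 795, beside 14.4 to 23.6 in the other 8. The genes considered here have longest transcripts of 1021 to 4889 bases. Their calls, their median fold changes and their ratios to T cell markers are therefore given with and without the libraries with a length trend. The fold changes of single genes, other than Il12rb2, are given with all libraries. The part of the length trend in any difference was not tested beyond the values given.

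Per length of transcript, the axis genes were expressed at low to moderate levels. In Fc control tumors the mean TPM (the authors' values, corrected for gene length and scaled to the same total in each library) was highest for Ebi3 at 16.1 ± 2.03 (SD, n = 4) and Il12rb1 at 13.5 ± 6.34, whose ranges overlapped. Il27 followed at 7.36 ± 0.80, Il18rap at 3.75 ± 0.54 and Stat4 at 3.07 ± 1.12. Il27ra at 2.02 ± 0.91, Il12rb2 at 1.70 ± 0.81 and Il18r1 at 1.51 ± 0.81 were lower and lay within 1 SD of each other. Il12a was near the limit of detection. In ALPN-202 tumors Il12rb1 stood above Ebi3, at 26.6 ± 14.5 and 23.9 ± 10.3, and Il18r1 just above Il27ra, at 4.65 ± 2.58 and 4.59 ± 2.93, with overlapping ranges in both pairs. Il12rb2, the seventh in Fc control tumors, was the fifth, with a mean of 7.95 ± 4.82, close to Il18rap at 8.04 ± 4.32 and Stat4 at 7.89 ± 4.93.

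**Figure D1:**
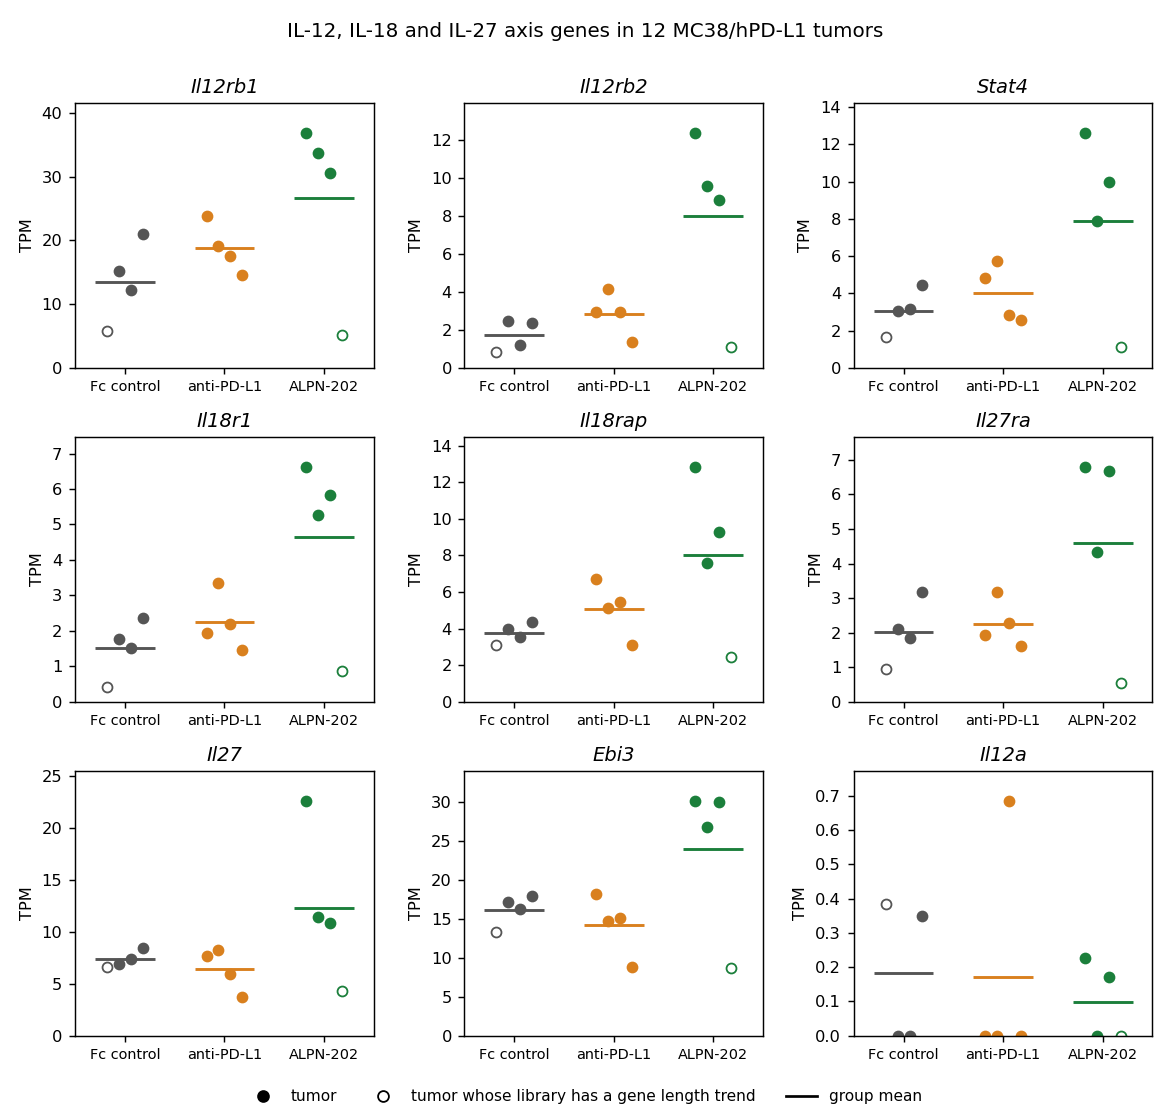
TPM of the 9 genes in each tumor, with one panel per gene and a separate linear axis from 0. Points are tumors, lines are means of 4 tumors, and open points mark the 2 libraries with a gene length trend. ALPN-202 replicate 4 is the lowest ALPN-202 tumor in 8 of the 8 genes that passed the filter, and the other 3 ALPN-202 tumors lie above every tumor of both other groups in those 8 genes. How many of all genes show either pattern was not counted, so neither is shown to be particular to these genes.

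Il12rb2, the chain that gives the IL-12 receptor its signaling capacity and appears on activated T and NK cells, had the highest fold change of the axis. Its TPM was 0.833, 2.45, 1.19 and 2.35 in the Fc control tumors (replicates 1 to 4), 2.94, 4.13, 2.91 and 1.35 in the anti-PD-L1 tumors, and 12.4, 9.56, 8.81 and 1.09 in the ALPN-202 tumors. ALPN-202 replicates 1 to 3 were at least at 8.81, whereas no tumor of the other groups was above 4.13, and replicate 4 lay within the Fc control range. The log2 fold change of ALPN-202 against Fc control was 2.22 (SE 0.53, edgeR adjusted p = 0.297), or 4.66-fold. Against anti-PD-L1 it was 1.61 (SE 0.51, edgeR adjusted p = 0.333). Neither passed the adjusted threshold of 0.05.

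Il12rb1, the chain shared by the receptors for IL-12 and IL-23, was the most abundant of the receptor genes. TPM was 5.74, 15.2, 12.2 and 20.9 in Fc control, 23.9, 19.1, 17.6 and 14.6 in anti-PD-L1, and 36.9, 33.8, 30.6 and 5.18 in ALPN-202 tumors. ALPN-202 replicates 1 to 3 were above all other tumors, and replicate 4 was the lowest of the 12. Against Fc control its log2 fold change was 1.02 (SE 0.38, edgeR adjusted p = 0.413), and against anti-PD-L1 0.65 (SE 0.38, edgeR adjusted p = 0.613).

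The ratio of the 2 receptor chains within a tumor does not depend on the library total. Il12rb2 per Il12rb1 TPM was 0.145, 0.161, 0.0977 and 0.112 in Fc control tumors and 0.335, 0.283, 0.288 and 0.210 in ALPN-202 tumors. All 4 ALPN-202 tumors thus lay above the highest Fc control tumor. The value of ALPN-202 replicate 4 rests on only 9 counts of Il12rb2 and 41 of Il12rb1, and that of Fc control replicate 1 on 10 and 66. Ratios from so few counts are imprecise, and whether replicate 4 differs from the Fc control range was not tested. The anti-PD-L1 tumors had 0.123, 0.216, 0.165 and 0.0922, of which replicate 2 exceeded ALPN-202 replicate 4. The means were 0.129 ± 0.029 in Fc control, 0.149 ± 0.054 in anti-PD-L1 and 0.279 ± 0.051 in ALPN-202 tumors (SD, n = 4). This ratio was picked out after its values were seen and carries no test.

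Stat4, which relays the IL-12 signal to the nucleus in T and NK cells, had TPM of 1.68, 3.03, 3.14 and 4.42 in Fc control, 4.84, 5.72, 2.85 and 2.56 in anti-PD-L1, and 12.6, 7.86, 9.98 and 1.10 in ALPN-202 tumors. Again 3 ALPN-202 tumors were above all tumors of the other groups and replicate 4 was below them. For Stat4 the log2 fold change was 1.38 against Fc control (SE 0.46, edgeR adjusted p = 0.375) and 1.11 against anti-PD-L1 (SE 0.46, edgeR adjusted p = 0.490).

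Il18r1 encodes the chain that binds IL-18, and its level was the lowest of the 5 receptor genes in Fc control tumors. TPM was 0.421, 1.76, 1.50 and 2.35 in Fc control, 1.94, 3.35, 2.20 and 1.46 in anti-PD-L1, and 6.63, 5.27, 5.82 and 0.873 in ALPN-202 tumors. The log2 fold change of ALPN-202 was 1.68 against Fc control (SE 0.47, edgeR adjusted p = 0.312) and 1.20 against anti-PD-L1 (SE 0.46, edgeR adjusted p = 0.421). After Il12rb2 this was the second highest fold change of the axis against Fc control.

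Il18rap encodes the accessory chain that the IL-18 receptor needs to signal. TPM was 3.12, 3.95, 3.56 and 4.37 in Fc control, 6.70, 5.12, 5.44 and 3.08 in anti-PD-L1, and 12.8, 7.59, 9.27 and 2.45 in ALPN-202 tumors. On TMM-normalized CPM (counts scaled to the library total, not corrected for length) all 4 ALPN-202 tumors, at 29.2, 16.3, 20.3 and 10.8, lay above the Fc control tumors at 10.2, 9.13, 6.70 and 9.48, but on TPM replicate 4 was below them. The log2 fold change was 1.12 against Fc control (SE 0.32, edgeR adjusted p = 0.316) and 0.84 against anti-PD-L1 (SE 0.32, edgeR adjusted p = 0.421). Il18r1 per Il18rap TPM overlapped between the groups, at 0.385 ± 0.174 in Fc control, 0.456 ± 0.153 in anti-PD-L1 and 0.549 ± 0.148 in ALPN-202 tumors (SD, n = 4).

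Il27ra, the ligand-specific chain of the IL-27 receptor, had TPM of 0.940, 2.12, 1.85 and 3.16 in Fc control, 1.93, 3.17, 2.27 and 1.61 in anti-PD-L1, and 6.80, 4.33, 6.69 and 0.547 in ALPN-202 tumors. ALPN-202 replicate 4 rests on 4 counts of this gene and was the lowest tumor of all. For this chain the log2 fold change was 1.21 against Fc control (SE 0.48, edgeR adjusted p = 0.436) and 1.17 against anti-PD-L1 (SE 0.47, edgeR adjusted p = 0.466).

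The IL-27 subunit genes had lower estimated fold changes against Fc control than each of the 5 receptor genes, a difference that was not tested. Ebi3, the subunit that IL-27 shares with IL-35, had TPM of 13.2, 17.1, 16.2 and 17.9 in Fc control, 18.2, 14.8, 15.1 and 8.84 in anti-PD-L1, and 30.1, 26.7, 30.0 and 8.69 in ALPN-202 tumors. ALPN-202 replicates 1 to 3 were close together and above every other tumor. Its log2 fold change was 0.61 against Fc control (SE 0.27, edgeR adjusted p = 0.524) and 0.94 against anti-PD-L1 (SE 0.27, edgeR adjusted p = 0.313).

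Il27 (p28) had TPM of 6.60, 6.95, 7.43 and 8.45 in Fc control, 7.66, 8.24, 5.91 and 3.74 in anti-PD-L1, and 22.6, 11.5, 10.9 and 4.27 in ALPN-202 tumors. One tumor, ALPN-202 replicate 1, was far above the rest. Without this tumor the log2 fold change against Fc control was 0.36 (edgeR adjusted p = 0.9998). With all tumors it was 0.78 against Fc control (SE 0.37, edgeR adjusted p = 0.570) and 1.14 against anti-PD-L1 (SE 0.37, edgeR adjusted p = 0.333). The p28 transcript stood at 0.459 ± 0.040 of that of Ebi3 in Fc control, 0.449 ± 0.075 in anti-PD-L1 and 0.509 ± 0.170 in ALPN-202 tumors (SD, n = 4), with overlapping ranges.

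Il12a was close to absent from the libraries. Its counts were 2, 0, 0 and 2 in Fc control, 0, 0, 4 and 0 in anti-PD-L1, and 1, 0, 1 and 0 in ALPN-202 tumors. No difference between groups was detectable at this depth, and no fold change is given.

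In ALPN-202 against Fc control, none of the 8 genes tested was called by edgeR at an adjusted p under 0.05, and neither was any of the 14142 genes (0%). At an unadjusted p under 0.05, 7 of the 8 were higher in ALPN-202 tumors (all but Il27), compared with 7.2% of all genes tested. The median log2 fold change of the 8 was 1.17, and that of all genes 0.041. On CPM all ALPN-202 tumors lay above all Fc control tumors in 1 of the 8 (Il18rap), against 2.67% of all genes. The 8 genes are not independent of each other, since they were measured in the same tumors.

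In anti-PD-L1 against Fc control, none of the 8 was called (0% of all genes) and none was higher at an unadjusted p under 0.05 (1.44% of all genes). In none of the 8 did all anti-PD-L1 tumors lie above all Fc control tumors on CPM, which they did in 1.08% of all genes. Fold changes ran from -0.36 for Il27 to 0.61 for Il12rb2 on the log2 scale, with a median of 0.28, and edgeR adjusted p-values were 0.826 or more. For Il12rb2 the 95% interval of the log2 fold change was -0.56 to 1.78, so these tumors bound it only loosely. Il27ra was nearest to 0, at 0.041 (SE 0.48), and its direction changed with the setting.

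In ALPN-202 against anti-PD-L1, none of the 8 was called by edgeR (0% of all genes). At an unadjusted p under 0.05, 7 of the 8 were higher in ALPN-202 tumors (all but Il12rb1), against 6.82% of all genes, and on CPM all ALPN-202 tumors lay above all anti-PD-L1 tumors in 1 (Il27), against 4.8%. The median log2 fold change was 1.12, beside 0.072 for all genes. This comparison uses the same ALPN-202 tumors as that with Fc control, so the 2 sets of values are not independent.

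**Figure D2:**
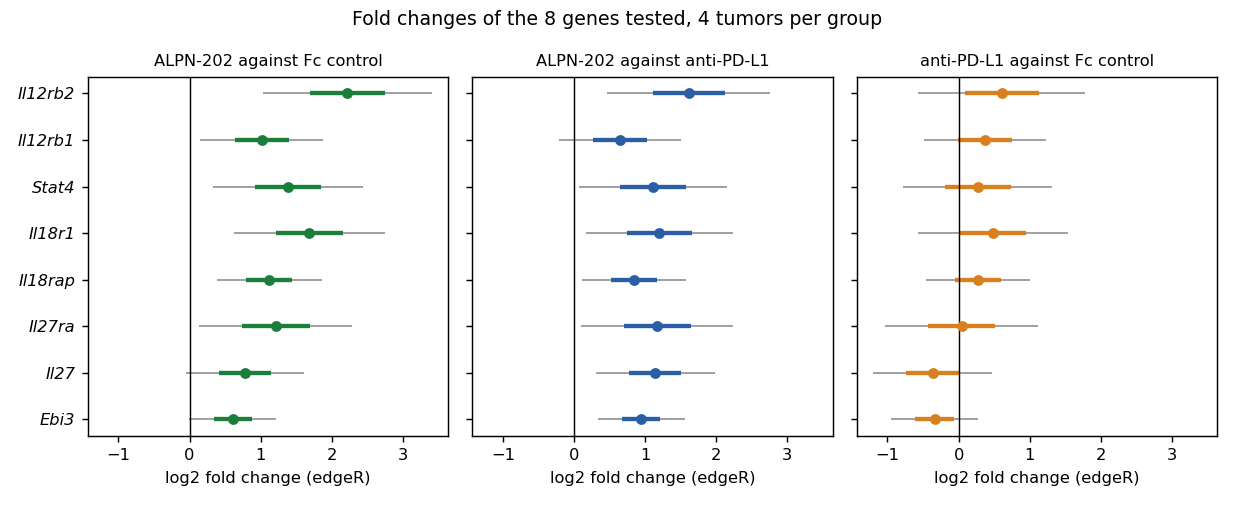
Log2 fold changes of the 8 genes tested in 3 comparisons, from 1 edgeR fit of 12 tumors. Points are estimates, thick bars 1 SE and thin bars 95% intervals. Il12rb2 is highest in each panel, at 2.22, 1.61 and 0.61, and the 2 IL-27 subunits are lowest against Fc control, at 0.78 and 0.61 for ALPN-202 and -0.36 and -0.34 for anti-PD-L1.

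In edgeR, the calls in ALPN-202 against Fc control changed with 1 tumor. Without ALPN-202 replicate 4, edgeR called 6 of the 8 genes in ALPN-202 against Fc control, with adjusted p from 0.0209 to 0.0494, where 2.53% of all genes were called higher. The 6 were Il12rb1, Il12rb2, Il18r1, Il18rap, Il27ra and Stat4, that is, the 5 receptor genes and Stat4, and Il27 and Ebi3 did not pass. The same 6 were called without both libraries with a length trend (adjusted p from 0.0169 to 0.0483, 5.47% of all genes), and without the 4 tumors whose adipocyte and epithelial markers were high, Fc control replicate 4, ALPN-202 replicate 4 and anti-PD-L1 replicates 2 and 4 (adjusted p from 0.0323 to 0.0466, 2.51% of all genes). Each of these sets leaves out ALPN-202 replicate 4. With the length trend removed and all 12 tumors kept, edgeR called 0 of the 8 genes, and none of all genes tested. The lowest edgeR adjusted p of the 8 was then 0.179, for Il12rb2. DESeq2 with all 12 tumors called Il12rb2, Il18r1 and Il18rap (1.34% of all genes). Limma-voom with sample quality weights, also with all 12, called 7, all but Il27 (10.8% of all genes). Such weights count outlying libraries less, so this fit does not give every tumor an equal part. The weight of ALPN-202 replicate 4 is not given here. Without both libraries with a length trend, which leaves 3 tumors in each of these groups, all ALPN-202 tumors lay above all Fc control tumors on CPM in 8 of 8 genes, as they did in 18.9% of all genes. The median log2 fold change of the 8 was then 1.36, beside -0.029 for all genes, and that of Il12rb2 was 2.38.

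In ALPN-202 against anti-PD-L1, leaving out both libraries with a length trend gave 5 calls, Il12rb2, Il18r1, Ebi3, Il27ra and Stat4, with edgeR adjusted p from 0.0275 to 0.0429, where 4.5% of all genes were called higher. DESeq2 called Ebi3 alone (adjusted p = 0.0455, 1.12% of all genes), and limma-voom with quality weights called 8 of 8 (11.6% of all genes). On CPM, without both libraries, all ALPN-202 tumors lay above all anti-PD-L1 tumors in 8 of 8 genes, beside 13.3% of all genes. Leaving out any single tumor gave no call in this comparison, nor did removing the length trend with all 12 tumors kept. No setting called any of the genes in anti-PD-L1 against Fc control.

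**Figure D3:**
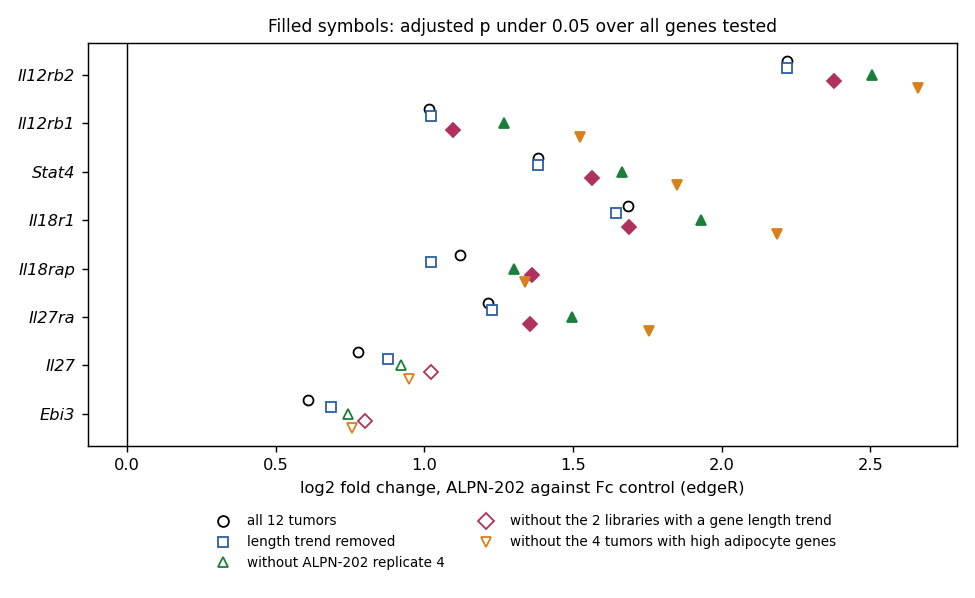
Log2 fold change of ALPN-202 against Fc control in edgeR under 5 settings, with filled symbols where the adjusted p was under 0.05. With all 12 tumors no symbol is filled. Without ALPN-202 replicate 4, and in both other sets with tumors left out, 6 genes are filled, and Il27 and Ebi3 are not.

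Markers of several immune cell types moved in the same direction as the axis genes. The summed CPM of 11 T cell markers was 30.7 to 72.2 in Fc control, 23.6 to 94.2 in anti-PD-L1 and 149 to 270 in ALPN-202 tumors, with replicate 4 the lowest of the last group. At 149, that tumor was still above every tumor of both other groups in T cell markers. On CPM its 8 axis genes tested lay within the Fc control range in 5 cases, above it in 1 and below it in 2. On TPM they lay within it in 2 cases, above it in 0 and below it in 6. On CPM with the length trend removed these were 3, 1 and 4. For 7 macrophage and monocyte markers the summed CPM was 1517 to 3714 in Fc control, 1324 to 2424 in anti-PD-L1 and 4046 to 5681 in ALPN-202 tumors. For 6 NK cell markers the groups overlapped, at 62.2 to 306, 59.9 to 83.4 and 83.9 to 422, as they did for 5 markers of mature migratory dendritic cells, at 253 to 503, 371 to 419 and 268 to 410. No listed marker of these types was at 0 in every tumor of a group. These sums are on CPM, which is not corrected for length. Fc control replicate 1 and ALPN-202 replicate 4, the 2 libraries with a length trend, had the highest NK cell sums of their groups, at 306 and 422. They also had the highest macrophage and monocyte sums of their groups, at 3714 and 5681. The part of the length trend in the T cell sum of 149 was not tested. In bulk tumor RNA, more cells of a type and more transcript per cell cannot be told apart, and the part of cell composition in these fold changes was not tested.

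Set against the T cell markers of the same tumor, Il12rb2 was the only one of the 8 genes with a higher mean in ALPN-202 than in Fc control tumors. Its log2 CPM minus the mean log2 CPM of the 11 markers was -1.09, -0.71, -0.78 and -0.68 in Fc control, -0.47, -0.42, -0.29 and -0.30 in anti-PD-L1, and -0.25, -0.11, -0.48 and -1.64 in ALPN-202 tumors. The ALPN-202 group thus spanned both others, and the difference of means from Fc control was 0.19, or 0.44 without the 2 libraries with a length trend, and 0.033 on log2(TPM + 1). For Il18r1 the difference was -0.18, for Stat4 -0.66, for Il18rap -0.75, for Il12rb1 -0.84 and for Il27ra -0.86. Without the 2 libraries these were -0.26, -0.39, -0.60, -0.78 and -0.61, in the same order. With or without them, these 5 genes were higher in ALPN-202 tumors by less than the T cell markers were.

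The IL-27 subunits had the most negative differences from Fc control on this scale. Ebi3 relative to them was 0.68 to 1.46 in Fc control, 0.043 to 0.94 in anti-PD-L1 and -0.32 to 0.010 in ALPN-202 tumors, a difference of -1.21 from Fc control (-1.12 without the 2 libraries). Il27 had a difference of -1.13 (-1.01 without them), with ALPN-202 tumors from -1.70 to -0.92 and Fc control tumors from -0.76 to 0.24. The mean log2 CPM of the T cell markers was itself 3.30 to 4.37 in ALPN-202 and 1.45 to 2.59 in Fc control tumors. A gene with little change is therefore also lower in ALPN-202 tumors on this scale. How many of all genes lie this way was not counted. The differences are descriptions of ratios within libraries, with no test.

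**Figure D4:**
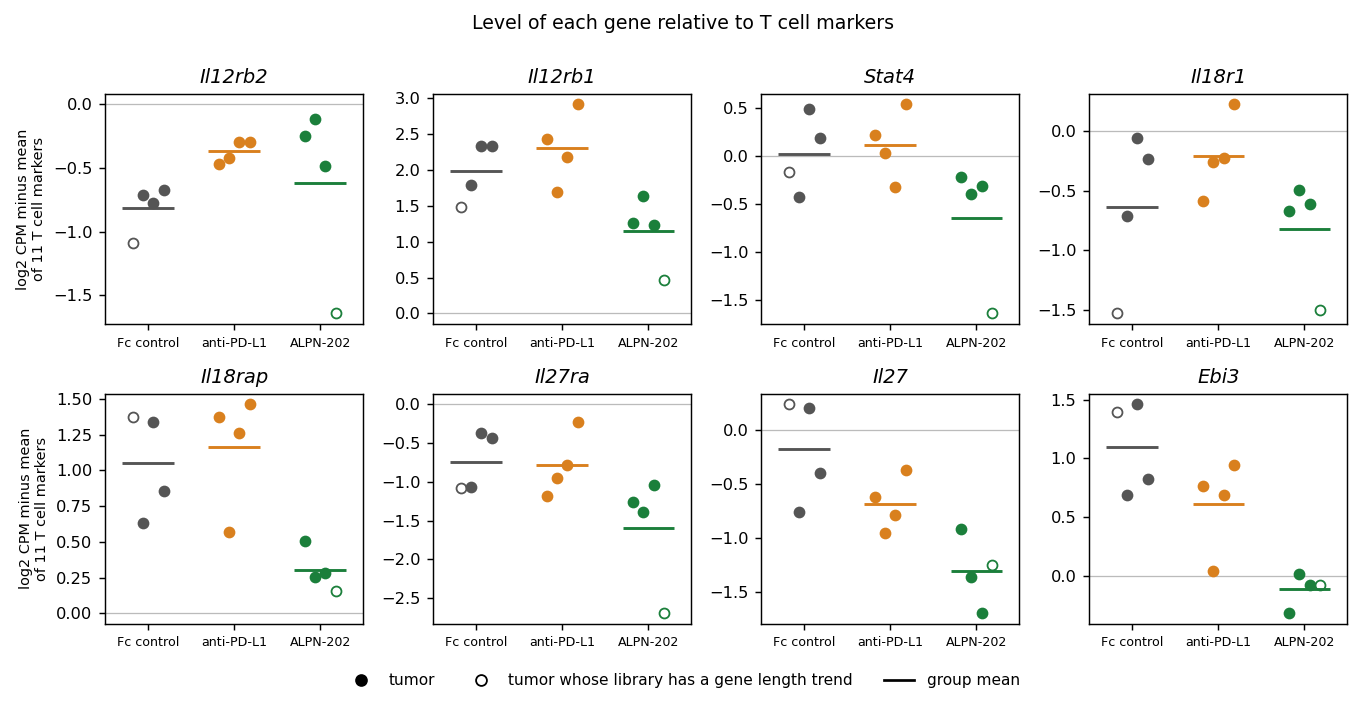
Log2 CPM of each of 8 genes minus the mean log2 CPM of 11 T cell markers in the same tumor, by group, with the mean of 4 tumors as a line and open points for the 2 libraries with a gene length trend. Il12rb2 has a higher mean in ALPN-202 than in Fc control tumors (-0.62 and -0.81), and Ebi3 a lower one (-0.12 and 1.09).

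The wider pathway was described with 28 further genes, of which 26 were tested. Il23a and Il23r, which belong to IL-23 and its receptor, had at most 6 and 1 counts in a tumor and did not pass the filter. In ALPN-202 against Fc control, 9 of the 26 were higher at an unadjusted p under 0.05 and none lower, beside the 7.2% of all genes that were higher. Their median log2 fold change was 0.36, and none was called by edgeR. In ALPN-202 against anti-PD-L1 8 were higher and none lower, with a median of 0.37, beside the 6.82% of all genes that were higher. In anti-PD-L1 against Fc control there were none either way, with a median of 0.0345, and 1.44% of all genes were higher.

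Among the ligands and the inhibitor, Il18 had 7.49 ± 1.06 TPM in Fc control, 6.60 ± 0.92 in anti-PD-L1 and 11.5 ± 2.31 in ALPN-202 tumors (SD, n = 4). Its counts were low, at 17 to 39 per tumor. The ALPN-202 tumors ranged from 9.29 to 14.5 TPM and the Fc control tumors from 6.67 to 9.06. The highest value was that of ALPN-202 replicate 4, the library with the lowest total and a length trend. Il18bp, the secreted IL-18 binding protein, was far more abundant, at 69.7 ± 13.7, 82.8 ± 28.8 and 175 ± 90.9 TPM, with ALPN-202 tumors from 47.5 to 259. Its log2 fold change was 1.31 against Fc control (SE 0.35, edgeR adjusted p = 0.306) and 1.24 against anti-PD-L1 (SE 0.35, edgeR adjusted p = 0.313). Il18bp per Il18 TPM was 8.90, 8.74, 8.02 and 11.6 in Fc control tumors and 27.9, 17.7, 17.99 and 3.28 in ALPN-202 tumors, so the ratio was above every Fc control tumor in 3 ALPN-202 tumors and below them in replicate 4. In anti-PD-L1 tumors it was 15.9, 13.0, 12.4 and 8.33, and 3 of these also lay above every Fc control tumor. Il12b, the p40 subunit of IL-12, had at most 17 counts in a tumor, with 1.52 ± 1.10 TPM in ALPN-202 and 0.650 ± 0.417 in Fc control tumors, and a log2 fold change of 1.30 (SE 0.65, edgeR adjusted p = 0.614).

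The receptor subunits that belong to related cytokines or are shared with them had log2 fold changes near 0 with intervals that spanned it. Il6st, which encodes gp130, the signaling partner of IL-27Rα, had a log2 fold change of 0.19 (SE 0.22) in ALPN-202 against Fc control, Il1rl1, the IL-33 receptor, 0.016 (SE 0.24), Il1rap, its accessory chain, -0.055 (SE 0.24), and Sigirr, an inhibitory family member, 0.16 (SE 0.26). Il1rl1 was the most abundant of them, at 251 to 276 mean TPM in the 3 groups. Of the kinases, Jak2 had 0.56 (SE 0.25), Tyk2 0.64 (SE 0.37) and Jak1 0.32 (SE 0.30).

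Downstream of the receptors, Stat3 had a log2 fold change of 0.23 (SE 0.30). Of the IL-18 signaling genes Irak2 had 0.84 (SE 0.28) and Irak4 0.36 (SE 0.14), while Myd88 at 0.19, Irak1 at 0.15 and Traf6 at 0.12 had unadjusted edgeR p-values above 0.05. Casp1, the protease that cleaves IL-18, had 0.34 (SE 0.37). Of the targets and regulators, Tbx21, the T-bet gene of type 1 T cells, had 1.55 (SE 0.55, edgeR adjusted p = 0.4003) and Ifng 1.25 (SE 0.46, edgeR adjusted p = 0.405). Il10, which IL-27 can induce, had 1.12 (SE 0.50) and Prdm1, which encodes Blimp-1, 0.85 (SE 0.29). Socs3 at 0.52, Eomes at 0.45 and Socs1 at 0.36 did not reach an unadjusted p under 0.05 in edgeR, nor did Gadd45b at 0.0023 and Gadd45g at -0.18, both reported as genes that IL-12 and IL-18 induce in T cells.

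Without both libraries with a length trend, 6 of these pathway genes were called higher in ALPN-202 against Fc control, where 5.47% of all genes were. They were Jak1, Jak2, Tyk2, Prdm1, Irak2 and Il18bp. Ifng and Tbx21 were not among them. Against anti-PD-L1, 3 were called, Tbx21, Tyk2 and Il18bp, where 4.5% of all genes were.

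**Figure D5:**
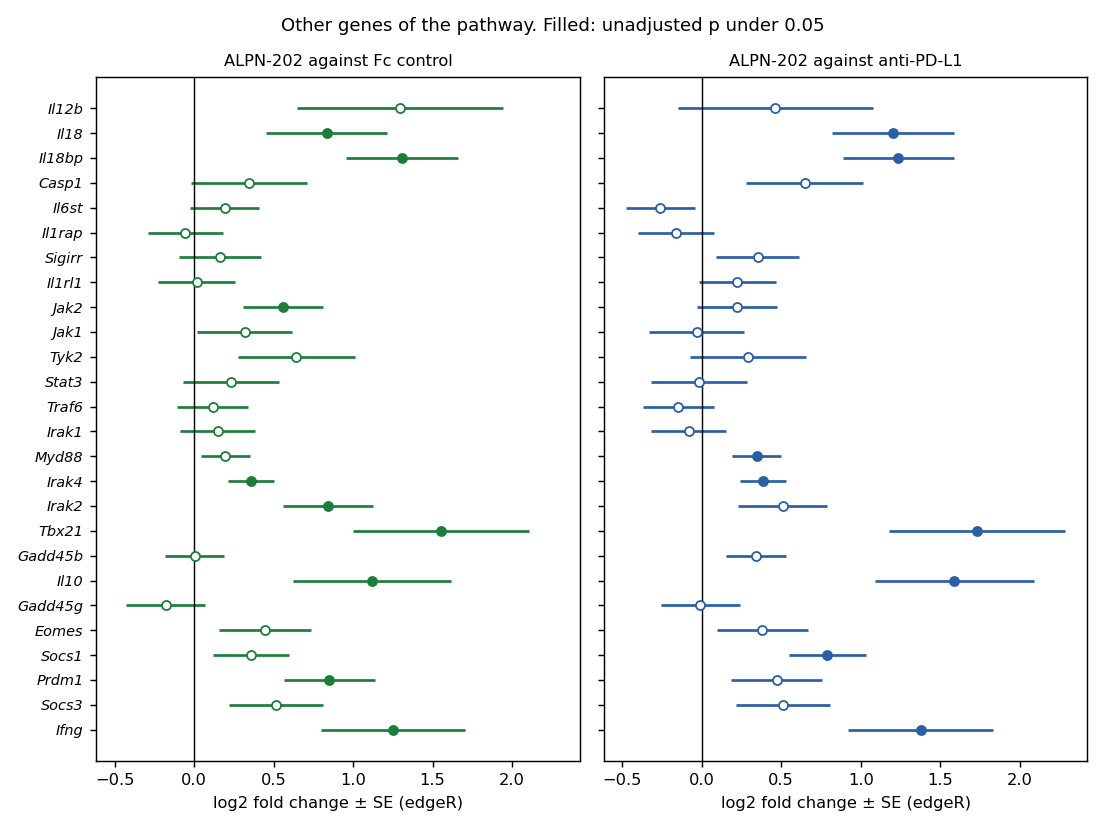
Log2 fold changes with 1 SE of the 26 further pathway genes tested, for ALPN-202 against Fc control and against anti-PD-L1, ordered by role from ligands to targets. Filled points have an unadjusted edgeR p under 0.05, which 9 genes have in the left panel and 8 in the right, and none has an adjusted p under 0.05.

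The genes whose log2 CPM followed each axis gene most closely over the 12 tumors were picked by Pearson correlation among 12085 genes. Il12rb2 was closest to Hk3 (r = 0.986), St3gal5 (0.980) and Cd22 (0.978), and Il18r1 to Nod1 (0.977), Scarf1 (0.975) and Cd7 (0.971). Il12rb1 was closest to Tnik (0.979), Slc15a3 and Slco3a1, Il18rap to Cst7 (0.970), Tlr6 and Apol7c, and among those of Stat4 were Rftn1 (0.978) and Pld3. Il27ra was closest to Sema4a (0.986), Nup210 and Rftn1. The IL-27 subunits shared Neurl3 among their 3 nearest genes, with r of 0.981 for Ebi3 and 0.934 for Il27, beside Il21r and Aph1c for Ebi3 and Ptger2 (0.945) and Mob3a for Il27. The points are the same 12 libraries in 3 groups, so these values describe likeness across groups as well as within them, and carry no test.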

How the data were processed

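RNA of 12 tumors was profiled, 4 per group. Per the labels, full-length cDNA was amplified from total RNA and made into libraries with a kit that does not mark strand. The deposited counts are whole numbers of single reads that the authors assigned to genes with htseq-count. STAR is named as aligner in their Methods, but TopHat (version 1.4.1) in the submitters' notes, which also give HTSeq as 0.4.1 and the build as NCBIM37. Which aligner made the table is therefore unclear. For the deposited TPM the authors divided counts by gene lengths of the same build. Of the 33018 lines, 219 names stood on more than 1 line, none of them an axis gene.

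Library sizes were scaled with TMM. Genes with low counts were removed by filterByExpr of edgeR, set to a minimum count of 10 and a minimum total of 15, and the rest were fitted in 1 quasi-likelihood model of 12 tumors with 9 residual degrees of freedom (edgeR 4.0.16, R 4.3.3). P-values were adjusted by Benjamini-Hochberg over the 14142 genes tested, with a threshold of 0.05. TPM served for levels between genes. Log2 CPM used a prior count of 2. The alternatives were other normalizations and filters, DESeq2 1.42.0, limma 3.58.1 (voom, and log2 of TPM with pseudocounts of 1 and 0.1), the replicate number as a block, removal of the gene length trend, a threshold of 0.1, and tumors left out. Leaving out the libraries with a length trend for the ratios to T cell markers, the ratios of mean levels and the medians was chosen after seeing the data. The fit was also run on simulated counts, drawn without a length trend or an outlying tumor, and no value given here rests on that run. Promoter windows came from RefSeq (GRCm38.p6). Tables used Python 3.11.15, pandas 2.3.3, NumPy 2.4.6 and SciPy 1.17.1, and figures Matplotlib 3.10.9.

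The axis genes, the pathway list and the marker lists were chosen with earlier results of these data known. The genes named are the 9 axis genes, the pathway list, and for each tested axis gene the 3 genes with the highest correlation, leaving out predicted genes and clones. Some genes that this rule would name are not reported here, and the counts of the pathway list leave them out.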

Additional observations from a re-analysis of the deposited data

Results flagged for a closer look

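In 27 groups of 4 tumors (9 genes by 3 groups, on TPM), 2 held a tumor far from the others. For normally distributed values, chance flags about 1 in 20 such groups. Ebi3 in ALPN-202 replicate 4 was 8.69 TPM, while the other 3 tumors of its group lay between 26.7 and 30.1, with a gap of 0.84 of the range. Il12a in anti-PD-L1 replicate 3 was 0.686 TPM, from 4 counts, while the other 3 tumors of its group were at 0. A group with 3 values at 0 and 1 above it is always flagged, so the rate of 1 in 20 does not apply to Il12a.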

How the results depend on the processing

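Of the alternatives tried, in ALPN-202 against Fc control the 8 fold changes kept their positive direction in all 196 refits. The number of genes called was 0 in the main edgeR fit, 3 with DESeq2 and 7 with voom and quality weights, all with 12 tumors. It was 6 without both libraries with a length trend and 6 without the 4 tumors with high adipocyte and epithelial genes. With single tumors left out it was 0 to 6 (6 without ALPN-202 replicate 4, otherwise 0). Every other setting gave 0, among them removal of the length trend, the other normalizations and filters, log2 of TPM and a threshold of 0.1. The genes whose groups did not overlap numbered 1, against 0 on TPM, 0 with library size alone and 8 without both libraries, and 1 to 8 with single tumors left out (8 without ALPN-202 replicate 4, 2 without Fc control replicate 1). Of all genes, 2.67% did so in the main setting and 18.9% without both libraries. The shares of all genes under the other settings, single tumors left out among them, were not counted. Of the further pathway genes, DESeq2 called 1 (Il18bp), where 1.34% of all genes were called higher. Without both libraries 6 were called, where 5.47% of all genes were called higher. Calls of the pathway genes under the other alternatives are not given here.

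In ALPN-202 against anti-PD-L1, also positive in all 196 refits, the calls were 0 in the main edgeR fit. They were 1 in DESeq2, 8 with voom and quality weights, and 5 without both libraries, and every other setting gave 0. Groups that did not overlap numbered 1, against 0 on TPM, 0 with library size alone, 8 without both libraries, and 1 to 8 with single tumors left out (8 without ALPN-202 replicate 4, 2 without anti-PD-L1 replicate 1). The share of all genes was 4.8% in the main setting and 13.3% without both libraries, and was not counted elsewhere. Without both libraries 3 further pathway genes were called, where 4.5% of all genes were called higher. In anti-PD-L1 against Fc control no setting gave a call, and the groups that did not overlap numbered 0 to 2 (2 without anti-PD-L1 replicate 4). In this comparison the share of all genes was 1.08% with all tumors, and was not counted with tumors left out. Il27ra reversed there, from 0.041 to -0.18 with voom and quality weights, -0.044 with the replicate block and -0.080 without both libraries, and ran from -0.21 to 0.31 with single tumors left out. The cause was not tested.

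With the replicate block 0 genes were called in each comparison. The 12 pairs of tumors with the same number had correlations of -0.48 to 0.46, and 1 of 12 tumors correlated best with one of its own number, so the numbers are not taken as pairs. On TPM with pseudocounts of 1 and 0.1 the median of all genes shifted by -0.12 and -0.14 in ALPN-202 against Fc control, and by -0.24 and -0.27 against anti-PD-L1. A filter of 10 counts in every tumor drops Il12rb2, Il18r1, Il27ra and Stat4. Depth limits Il12a in all tumors. In ALPN-202 replicate 4 it also limits Il27ra (4 counts), Il12rb2 and Stat4 (9 each), Il18r1 (10) and Il27 (12). In Fc control replicate 1 it limits Il18r1 (7 counts), Il12rb2 and Il27ra (10 each).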
